A study of Mus musculus with 18 samples.

Results

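The TAM receptors Axl, Mertk and Tyro3 and their ligands Gas6 and Pros1 were described in 18 B16F10 melanomas. These 5 genes are 5 of the 41079 genes in the table of expression values. They were chosen by name as a receptor family and its ligands, and the family was selected on earlier results of the same data, in which Axl had been noted as higher in PS473@NKMOF-101-[Mn] tumors than in Free PS473 tumors. That comparison was therefore used for the choice, and for the 5 genes it is given as a description with no test.

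B16F10 is a mouse melanoma cell line, and the tumors were grown under the skin of female C57BL/6 mice. Injections into the tumor began on day 6, at a tumor volume of about 50 mm3, and were repeated every 2 days. Tumor tissue was taken 48 h after the last injection, with 3 tumors in each of 6 groups. PBS tumors received the buffer alone, and Free PS473 tumors received the Pistol ribozyme PS473, an RNA that cuts the messenger RNA of PD-L1, without a carrier. PS473@CPs tumors received the same ribozyme with cationic polymers. NKMOF-101-[Mn] tumors received the empty manganese metal-organic framework, M5@NKMOF-101-[Mn] tumors the framework with the inactive mutant ribozyme M5, and PS473@NKMOF-101-[Mn] tumors the framework with PS473. All 6 groups carried the same cell line in the same mouse strain, and no allele differed between them. For the PS473@NKMOF-101-[Mn] group, all 3 sample titles read PS473@NKMOF-102-[Mn], and the framework named in the treatment description was followed here. No label says whether the tumors of a group came from separate mice, so the p-values measure the spread between these samples.

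TAM receptors are receptor tyrosine kinases of the cell surface. Gas6 and Pros1 (protein S) are secreted bridging proteins that bind phosphatidylserine on dying cells at one end and a TAM receptor at the other, and their binding to the membrane depends on vitamin K-dependent carboxylation. Mertk and Axl take part in the clearance of dead cells by macrophages and dendritic cells, and in these cells TAM signaling works with the interferon receptor to dampen cytokine production. Gas6 binds all of the receptors, whereas Pros1 activates Tyro3 and Mertk and is not known as a ligand of Axl.

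The stretch before the transcription start is shown for Axl, Gas6 and Pros1, since these genes had the closest relations with other genes of the tumors described here. All 5 members were matched by symbol in RefSeq (mouse build GRCm38.p6), and the 250 bases upstream of each start are printed 5′ to 3′ on the strand of the gene. The expression values were labelled with build GRCm39 and were used by gene name only. Capitals mark the GC box GGGCGG and the motif TTCNNNGAA, an inverted repeat, on either strand.
Axl, chr7:25788734-25788983, minus strand: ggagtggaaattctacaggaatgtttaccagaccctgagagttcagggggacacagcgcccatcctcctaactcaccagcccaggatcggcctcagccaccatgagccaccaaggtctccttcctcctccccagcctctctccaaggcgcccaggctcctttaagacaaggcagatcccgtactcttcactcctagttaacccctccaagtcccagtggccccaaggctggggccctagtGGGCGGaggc
Gas6, chr8:13494536-13494785, minus strand: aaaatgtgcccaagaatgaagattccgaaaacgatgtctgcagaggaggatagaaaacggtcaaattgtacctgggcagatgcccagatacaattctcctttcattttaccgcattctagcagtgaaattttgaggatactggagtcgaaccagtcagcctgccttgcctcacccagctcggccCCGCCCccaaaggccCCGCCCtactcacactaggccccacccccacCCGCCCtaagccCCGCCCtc
Pros1, chr16:62854057-62854306, plus strand: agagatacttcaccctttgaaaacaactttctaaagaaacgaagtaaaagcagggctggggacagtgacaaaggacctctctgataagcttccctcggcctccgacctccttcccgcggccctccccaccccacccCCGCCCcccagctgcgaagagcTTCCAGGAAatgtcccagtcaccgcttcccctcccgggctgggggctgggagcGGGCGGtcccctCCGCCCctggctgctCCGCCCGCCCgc
The window of Axl held 1 GC box, near its end, that of Gas6 held 4 and that of Pros1 held 5, of which the last overlap each other. Mertk and Tyro3, which are not printed, held 3 each. Over all 32851 RefSeq mouse promoters, 32.7% held a GC box in a window of the same length. The motif TTCNNNGAA was found in 1 of the 5 members, Pros1, and in 7.02% of all promoters. The motif GAAANNGAAA, which resembles the site of interferon-activated factors, was found in none of the 5 members, in 2.98% of all promoters and in 8 of the 17 promoters that could be matched to a list of interferon-stimulated genes. These matches are of letters only and do not show a site in use.

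Across all tumors the family ran from the strongly measured Axl to the weakly measured Mertk. Levels are given in FPKM, the fragments per kilobase of gene scaled to one library total, so that genes can be compared per length. Mean levels over the 18 tumors were 15.0 FPKM for Axl, 11.9 for Pros1, 8.84 for Tyro3, 3.81 for Gas6 and 0.920 for Mertk. Axl rested on 1358 to 5774 fragments per tumor, Mertk on 108 to 289 and Gas6 on 18.4 to 1021, all recovered from the FPKM values. Gas6 varied most among the members, with a highest tumor 54.4 times its lowest, against 3.97 for Axl, 2.67 for Mertk, 2.32 for Pros1 and 1.75 for Tyro3. The spread between tumors of one group, as a pooled SD on the log2(FPKM + 1) scale, was 1.05 for Gas6, 0.36 for both Axl and Pros1, 0.23 for Tyro3 and 0.18 for Mertk, beside a median of 0.18 over the 12357 genes that averaged 1 FPKM or more. In whole tumor tissue, fewer cells of a type and less RNA per cell cannot be told apart.

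The libraries had 17144000 to 28307000 fragments assigned to genes. The defining markers of melanoma cells were present in every tumor, and the summed FPKM of the 10 genes of this list lay between 5052 and 7978. The skin epithelium list (13 genes found) ranged from 2.09 to 5337 in summed FPKM. Its score, the mean log2(FPKM + 1) of the list, split the tumors into 8 at up to 0.24 and 10 at 0.97 or more, and both kinds were found in every group. The level of Cd274, the PD-L1 gene that PS473 targets, was 9.74 to 32.9 FPKM in PS473@NKMOF-101-[Mn] tumors and 12.3 to 21.5 FPKM in PBS tumors.

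Among the receptors, Axl was measured at 13.1, 16.3 and 14.2 FPKM in the PBS tumors. The Free PS473 tumors held 7.28, 7.83 and 9.18 FPKM of Axl. These 3 tumors were the lowest of all 18. In PS473@CPs tumors Axl was at 10.5, 15.5 and 21.9 FPKM, and in NKMOF-101-[Mn] tumors at 13.2, 11.8 and 16.8 FPKM. M5@NKMOF-101-[Mn] tumors held 18.2, 17.9 and 21.5 FPKM. PS473@NKMOF-101-[Mn] tumors held 15.1, 28.9 and 11.6 FPKM, so that the highest tumor of the series and one below every PBS tumor lay in the same group. By group mean the order was Free PS473 (8.10 FPKM ± 0.976, SD, n = 3), NKMOF-101-[Mn] (13.9 ± 2.60), PBS (14.5 ± 1.62), PS473@CPs (16.0 ± 5.72), PS473@NKMOF-101-[Mn] (18.5 ± 9.16) and M5@NKMOF-101-[Mn] (19.2 ± 2.00). Only the step from Free PS473 to NKMOF-101-[Mn] separated neighbors whose tumors did not overlap, and Free PS473 belongs to the contrast that chose Axl.

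Tyro3, the receptor best known from the nervous system and also expressed in melanoma, was more even. PBS tumors held 6.59, 11.3 and 11.3 FPKM of Tyro3, and Free PS473 tumors 9.15, 10.5 and 7.81 FPKM. PS473@CPs tumors held 9.09, 11.5 and 6.95 FPKM, and NKMOF-101-[Mn] tumors 10.3, 8.94 and 9.24 FPKM. The lowest group means belonged to M5@NKMOF-101-[Mn] (7.41, 8.05 and 7.31 FPKM) and PS473@NKMOF-101-[Mn] (8.30, 7.97 and 7.23 FPKM). All neighbors in the order of group means overlapped.

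Mertk, the receptor through which macrophages engulf dying cells, stayed near the lower end of what was measured. It was at 0.737, 1.03 and 1.02 FPKM in PBS tumors, at 0.860, 0.766 and 1.32 FPKM in Free PS473 tumors and at 0.794, 0.584 and 0.930 FPKM in PS473@CPs tumors. NKMOF-101-[Mn] tumors held 1.42, 1.02 and 0.866 FPKM, M5@NKMOF-101-[Mn] tumors 1.05, 0.755 and 0.833 FPKM, and PS473@NKMOF-101-[Mn] tumors 0.826, 1.21 and 0.533 FPKM. The 6 groups overlapped throughout, and the counting error alone was 5.89% to 9.61% of a value.

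Gas6, the ligand of all of the receptors, was the member with the widest spread inside groups. PBS tumors held 0.356, 4.08 and 7.27 FPKM, which includes the lowest tumor of the series. Free PS473 tumors held 0.925, 0.601 and 6.35 FPKM, and PS473@CPs tumors 1.31, 8.57 and 3.02 FPKM. NKMOF-101-[Mn] tumors held 19.4, 6.22 and 1.97 FPKM. The M5@NKMOF-101-[Mn] tumors lay close together at 0.874, 0.968 and 1.20 FPKM. PS473@NKMOF-101-[Mn] tumors held 0.767, 3.05 and 1.62 FPKM. Group means ran from 1.01 FPKM ± 0.166 (M5@NKMOF-101-[Mn]) to 9.19 FPKM ± 9.07 (NKMOF-101-[Mn], n = 3 each), and all neighbors in the order overlapped.

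Pros1, the other ligand, is better known as an anticoagulant cofactor. It was at 9.87, 13.5 and 10.1 FPKM in PBS tumors and at 9.45, 7.22 and 14.9 FPKM in Free PS473 tumors. PS473@CPs tumors held 7.36, 13.2 and 13.1 FPKM, and NKMOF-101-[Mn] tumors 14.6, 10.9 and 13.2 FPKM. M5@NKMOF-101-[Mn] tumors held 12.1, 14.1 and 14.3 FPKM and PS473@NKMOF-101-[Mn] tumors 9.96, 16.8 and 8.55 FPKM. Group means spanned only 10.5 FPKM ± 3.97 (Free PS473) to 13.5 FPKM ± 1.20 (M5@NKMOF-101-[Mn]), with all neighbors overlapping. Pros1 was higher than Gas6 in 17 of the 18 tumors, the exception being NKMOF-101-[Mn] tumor 1, where the ratio of Pros1 to Gas6 was 0.756, and it reached 27.7 in PBS tumor 1.

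**Figure D1:**
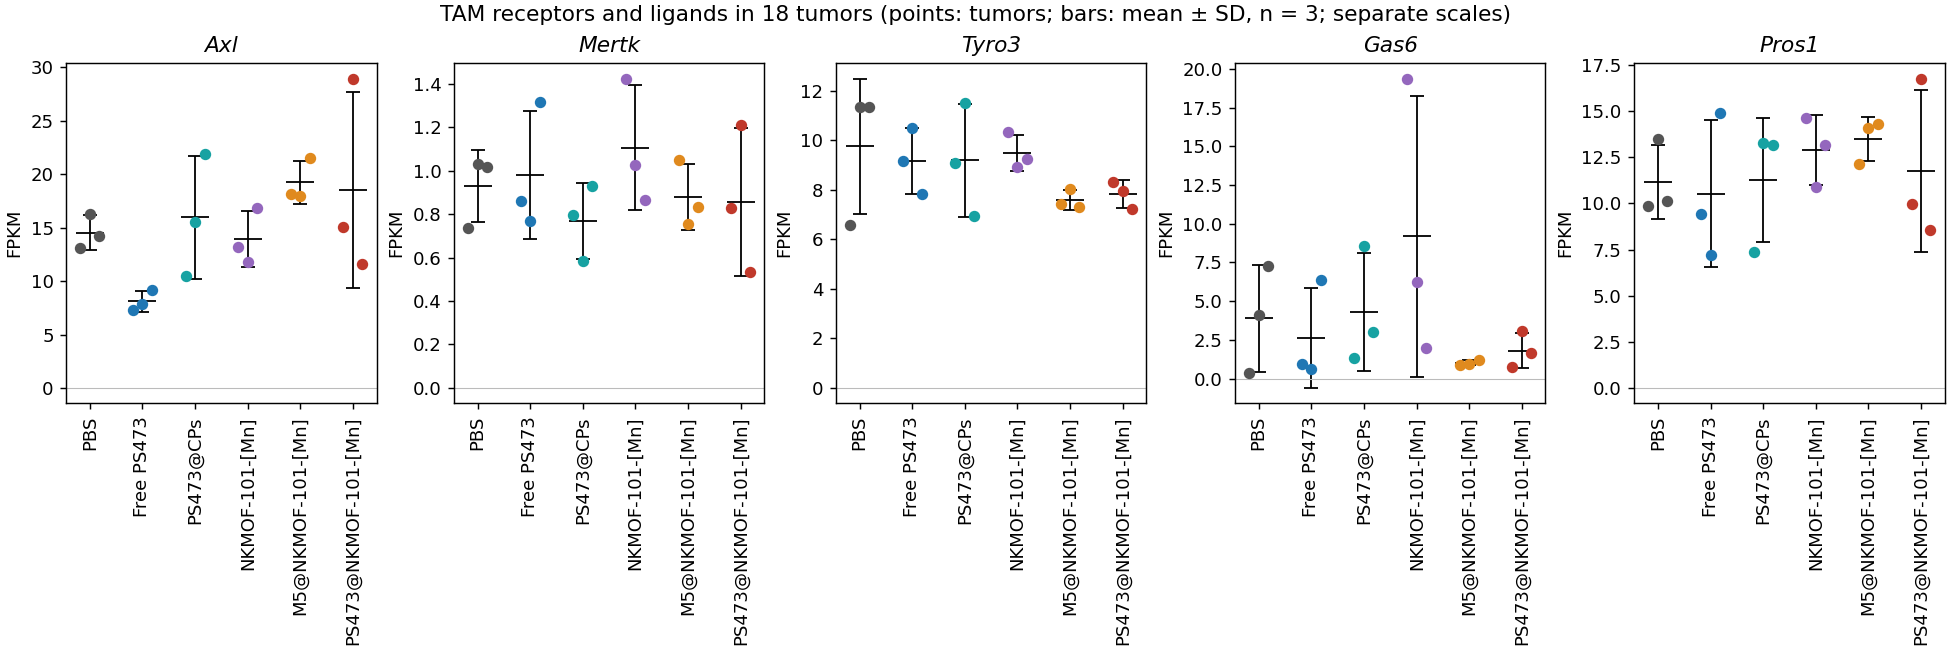
FPKM of each TAM receptor and ligand (y axis, separate scale for each gene) in the 6 groups (x axis); points are tumors and bars give the mean and SD of 3 tumors. Axl was lowest in the Free PS473 tumors (7.28 to 9.18 FPKM), and Gas6 ranged from 0.356 to 19.4 FPKM with wide overlap between groups.

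The receptors can also be read as shares of their summed FPKM in a tumor. Axl made up 41.0% to 75.9% of this sum and was higher than Tyro3 in 16 of 18 tumors. Mertk was the lowest receptor in all 18, at 2.12% to 7.18%. The Axl share averaged 44.4% ± 4.98 in Free PS473, 56.5% ± 5.20 in NKMOF-101-[Mn], 58.1% ± 5.47 in PBS, 60.4% ± 11.6 in PS473@CPs, 66.1% ± 8.62 in PS473@NKMOF-101-[Mn] and 69.3% ± 2.89 in M5@NKMOF-101-[Mn] tumors (SD, n = 3). The 2 tumors in which Tyro3 exceeded Axl were Free PS473 tumors 1 and 2.

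**Figure D2:**
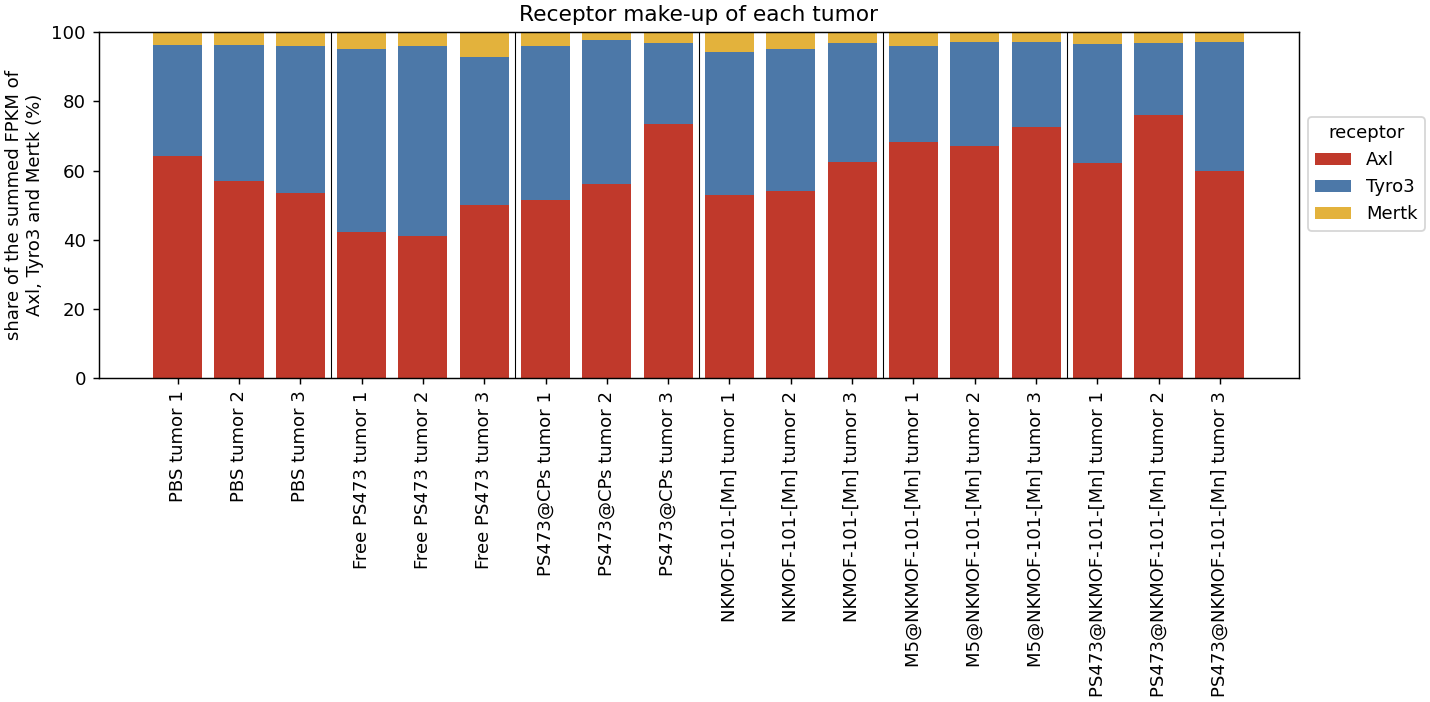
Share of Axl, Tyro3 and Mertk in their summed FPKM (y axis, percent) in each of the 18 tumors (x axis, grouped by treatment). The Axl share was 41.0% to 50.1% in Free PS473 tumors and 67.1% to 72.6% in M5@NKMOF-101-[Mn] tumors, and Mertk stayed at or below 7.18% in every tumor.

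The first question was whether PS473 in the framework, compared with the other formulations, came with another level of TAM receptors or ligands. Differences are log2 fold changes on the log2(FPKM + 1) scale, which understates changes of weakly expressed genes, and they come from limma fitted to the 12357 genes that averaged 1 FPKM or more, with Benjamini-Hochberg adjusted p-values. A gene was called if its adjusted p was under 0.05 and its fold over 2. Of the 5 members 4 were tested, since Mertk fell below the limit. Outside the comparison used for the choice there were 9 others. Those with PS473@NKMOF-101-[Mn] or Free PS473 tumors share tumors with it, and in them the values of Axl are descriptions. In these 9 comparisons 0 of the 4 members were called, beside 0% of all genes tested, and limma's voom on the recovered fragments also called 0.

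Against PBS, PS473@NKMOF-101-[Mn] tumors differed in Axl by 0.24 (95% interval −0.35 to 0.82) and in Pros1 by 0.03 (−0.55 to 0.60). Tyro3 differed by −0.25 (−0.64 to 0.14) and Gas6 by −0.53 (−2.21 to 1.14). At an unadjusted p under 0.05 there were 0 members, beside 2.1% of all genes. Without PS473@NKMOF-101-[Mn] tumor 2, which held the highest Axl, the difference in Axl was −0.12, and without PBS tumor 3 that in Gas6 was 0.02. The sign of these differences thus rested on single tumors. Without PBS tumor 1, the lowest PBS tumor in Tyro3, the difference in Tyro3 was −0.48 (unadjusted p = 0.00768, adjusted p = 0.879 in limma). In that fit 667 of the 12357 genes had an unadjusted p under 0.05.

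Against PS473@CPs, the same ribozyme with cationic polymers, Axl differed by 0.16 (−0.42 to 0.75), Pros1 by 0.05 (−0.53 to 0.62), Tyro3 by −0.18 (−0.57 to 0.21) and Gas6 by −0.75 (−2.42 to 0.92). Here too 0 members reached an unadjusted p under 0.05, beside 2.29% of all genes. Without PS473@NKMOF-101-[Mn] tumor 2 the difference in Axl was −0.19.

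Against the empty NKMOF-101-[Mn], Gas6 was the member furthest apart, at −1.51 (−3.19 to 0.16, unadjusted p = 0.0727, adjusted p = 0.999 in limma). The fibroblast score moved with it and was 2.28 to 3.54 in PS473@NKMOF-101-[Mn] tumors and 2.92 to 4.64 in NKMOF-101-[Mn] tumors, and its part in the difference was not tested. The endothelium score (1.41 to 1.71 against 1.73 to 2.80) and the macrophage score (2.75 to 3.50 against 3.52 to 4.52) also lay apart without overlap, the PS473@NKMOF-101-[Mn] tumors being the lower ones, and their parts were not tested. Without NKMOF-101-[Mn] tumor 1 the difference in Gas6 was −0.80, and without NKMOF-101-[Mn] tumor 3 it was −2.19 (unadjusted p = 0.0173 in limma). In the fit without NKMOF-101-[Mn] tumor 3, 252 of the 12357 genes had an unadjusted p under 0.05. Tyro3 differed by −0.25 (−0.64 to 0.14), and its 3 PS473@NKMOF-101-[Mn] tumors all lay below the 3 NKMOF-101-[Mn] tumors, as was the case for 5.5% of all genes. Axl differed by 0.31 (−0.28 to 0.89) and Pros1 by −0.17 (−0.74 to 0.41). Again 0 members reached an unadjusted p under 0.05, beside 2.3% of all genes.

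The closest comparison in structure was with M5@NKMOF-101-[Mn], in which the framework carried the mutant ribozyme in place of PS473. Axl differed by −0.14, with an interval of −0.73 to 0.44, Tyro3 by 0.04 (−0.35 to 0.43), Pros1 by −0.24 (−0.81 to 0.34) and Gas6 by 0.40 (−1.27 to 2.08). No member reached an unadjusted p under 0.05, beside 0.591% of all genes. Intervals of this width do not show that the ribozymes acted alike. Without PS473@NKMOF-101-[Mn] tumor 2 the difference in Axl was −0.50, given as a description.

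The second question was what the framework without active ribozyme came with. In M5@NKMOF-101-[Mn] tumors Axl lay above PBS by 0.38 (−0.20 to 0.97, unadjusted p = 0.184, adjusted p = 0.999 in limma), and the 3 tumors of each group did not overlap, as in 4.75% of all genes in that direction. The score of interferon-stimulated genes moved with it, at 3.24 to 3.39 in M5@NKMOF-101-[Mn] tumors and 2.71 to 3.16 in PBS tumors, and its part was not tested. The T and NK cell score moved likewise, at 0.75 to 0.97 against 0.48 to 0.59, and its part was not tested. This list of 8 genes summed to 6.64 to 10.5 FPKM in M5@NKMOF-101-[Mn] tumors and 3.45 to 4.34 FPKM in PBS tumors, only 2 of its genes averaged 1 FPKM or more, and Cd3d and Ncr1 were at 0 in some tumors of the series. Tyro3 differed by −0.29 (−0.68 to 0.10), Gas6 by −0.94 (−2.61 to 0.73) and Pros1 by 0.26 (−0.31 to 0.84), and 0 members reached an unadjusted p under 0.05, beside 1.51% of all genes. Without PBS tumor 1, which stood apart from the other PBS tumors in Tyro3 and Gas6, the differences were −0.52 in Tyro3 and −1.69 in Gas6, with unadjusted p-values of 0.00465 and 0.0495 in limma (adjusted p = 0.911 and 0.912). In that fit 676 of the 12357 genes had an unadjusted p under 0.05.

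In empty NKMOF-101-[Mn] tumors Axl differed from PBS by −0.07 (−0.65 to 0.52) and Gas6 by 0.98 (−0.69 to 2.65). The difference in Gas6 was 0.23 without PBS tumor 1 and 1.66 without NKMOF-101-[Mn] tumor 3. There were 0 members at an unadjusted p under 0.05 beside 1.46% of all genes. With both framework groups pooled, Axl differed from PBS by 0.16 (−0.35 to 0.66), and 0 members passed beside 1.29%. Without PBS tumor 1 the pooled difference in Tyro3 was −0.38 (unadjusted p = 0.0164 in limma), and 456 of the 12357 genes had an unadjusted p under 0.05. PS473@CPs against PBS gave 0 members as well, beside 2.09% of all genes.

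Mertk could be fitted with a limit of 0.1 FPKM. Its differences in the same comparisons lay between −0.19 (PS473@NKMOF-101-[Mn] against NKMOF-101-[Mn], −0.50 to 0.13) and 0.12 (NKMOF-101-[Mn] against PBS, −0.19 to 0.44).

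**Figure D3:**
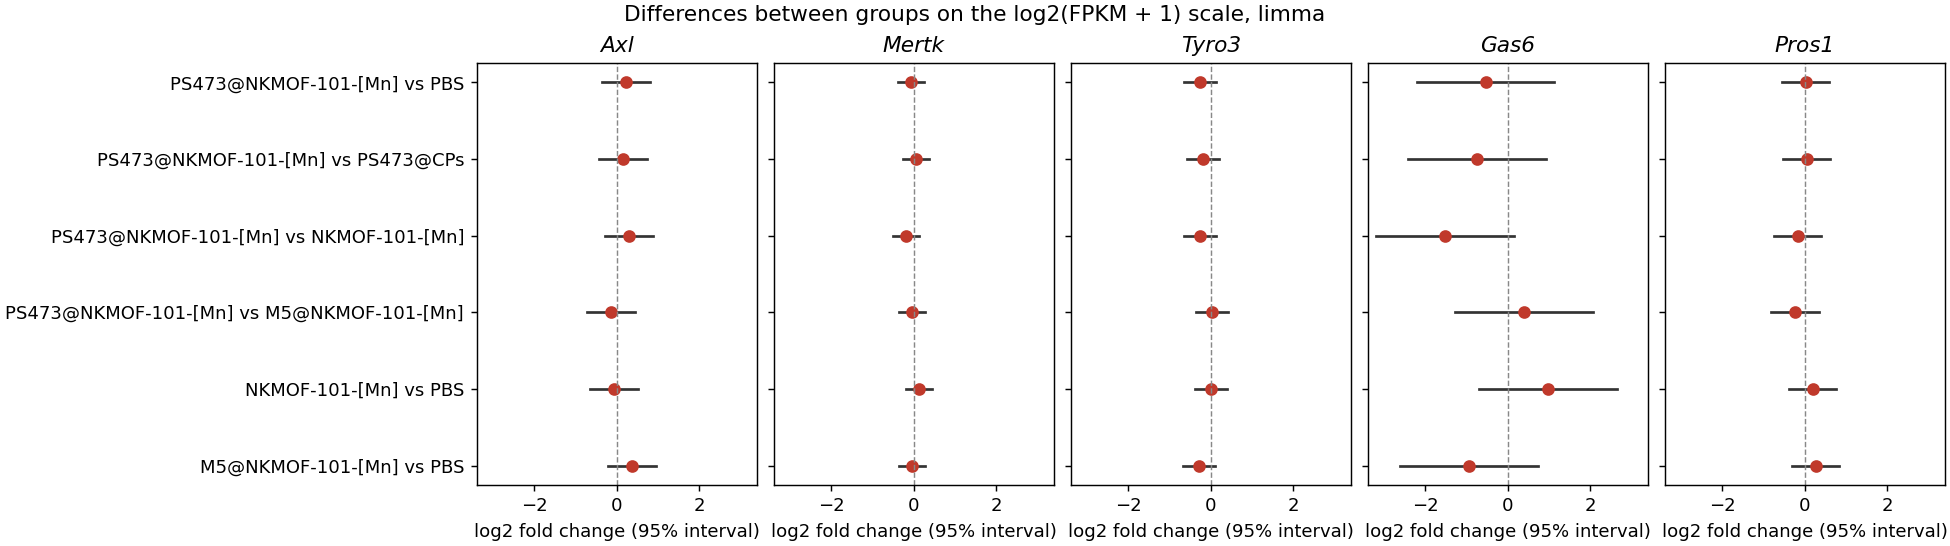
Log2 fold changes of each member (x axis, log2(FPKM + 1) scale; points are estimates and lines 95% intervals from limma) in 6 comparisons (rows). Every interval includes 0, and those of Gas6 are the widest, reaching −3.19 for PS473@NKMOF-101-[Mn] against NKMOF-101-[Mn].

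For the contrast used in the choice, Axl averaged 18.5 FPKM in PS473@NKMOF-101-[Mn] and 8.10 FPKM in Free PS473 tumors, a log2 fold change of 1.01, and the tumors did not overlap. In that direction 2.34% of all genes did not overlap either, and 4.98% of all genes had an unadjusted p under 0.05. With PS473@NKMOF-101-[Mn] tumor 2 left out, Axl differed by 0.65. In the same contrast Tyro3 differed by −0.19, Gas6 by −0.09 and Pros1 by 0.15. Free PS473 against PBS shares the Free PS473 tumors with the choice and gave −0.77 for Axl, and 1.81% of all genes had an unadjusted p under 0.05 there.

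The wider pathway was read from 5 lists of genes chosen by function, of which 58 genes were tested and 0 were called in any comparison. The counts at an unadjusted p under 0.05 that follow are to be read beside the shares of all genes given above. Other phosphatidylserine receptors and bridging proteins (15 of 21 tested) included the C1q genes, Lgals3 and Stab1. Of this list, 1 gene passed that limit, Stab1, a scavenger receptor of macrophages and endothelium. It was at 4.22, 3.78 and 2.98 FPKM in PS473@NKMOF-101-[Mn] tumors and at 17.9, 6.55 and 8.78 FPKM in NKMOF-101-[Mn] tumors, a log2 fold change of −1.27 with non-overlapping tumors (adjusted p = 0.999 in limma). The list's median log2 fold change there was −0.81, beside −0.04 over all genes tested. The macrophage and endothelium scores given above for Gas6 did not overlap between these groups either, and were both lower in PS473@NKMOF-101-[Mn] tumors. Their parts were not tested.

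Genes of receptor shedding, signalling adaptors and interferon feedback (14 of 16 tested) included Adam10 and Adam17, which cut receptors such as Axl and Mertk from the membrane. Tns2, an adaptor of focal adhesions, had an unadjusted p under 0.05 in 2 comparisons, both with Free PS473, at −0.54 in PS473@NKMOF-101-[Mn] against Free PS473 and 0.48 in Free PS473 against PBS. Grb2, an adaptor of receptor tyrosine kinases, was higher in M5@NKMOF-101-[Mn] than in PBS tumors by 0.25 (adjusted p = 0.999 in limma) and in both framework groups together by 0.21.

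Genes of phosphatidylserine exposure and engulfment (14 of 17 tested, among them Rac1 and Tmem30a), the vitamin K cycle that carboxylates the ligands (5 of 9, among them Vkorc1 and Ggcx) and the nuclear receptor and cholesterol efflux response to engulfed cells (10 of 11, among them Apoe and Nr1h2) had 0 genes past an unadjusted p of 0.05 in all 10 comparisons. In PS473@NKMOF-101-[Mn] against PBS their median log2 fold changes were 0.01, −0.05 and 0.03, beside −0.01 over all genes tested. The enzymes of ligand carboxylation were measured in every tumor, Vkorc1 at 17.6 to 24.6 FPKM and Ggcx at 6.54 to 11.8 FPKM.

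The members were then compared, tumor by tumor, with scores of marker genes and with each other. A score is the mean log2(FPKM + 1) of a list, and 40 relations were computed (5 members with 6 scores, and 10 pairs of members), with two-sided permutation p-values adjusted by the Benjamini-Hochberg method. Leaving aside the skin score and every relation of Axl, 6 of 20 relations with scores and 0 of 6 pairs of members passed an adjusted p of 0.05 by Pearson's r over the 18 tumors. For Axl, values over 18 tumors are descriptions, and tests use the 12 tumors outside the groups that chose it.

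Axl followed the interferon-stimulated genes. Over all 18 tumors Pearson's r was 0.87 and Spearman's rho 0.84. Over the 12 tumors of the other 4 groups r was 0.73 (permutation p = 0.00686, adjusted p = 0.0465) and rho 0.78 (permutation p = 0.00382, adjusted p = 0.045). Within groups, as deviations from group means over the 18 tumors, r was 0.82. This value is a description, since the tumors that chose Axl are included, and it did not pass the adjusted threshold. Without the 2 tumors farthest from the median score r was 0.79. Among the 8 tumors with little skin signal r was 0.89, and among the other 10 it was 0.84. These values too are descriptions, since each set includes tumors of the groups that chose Axl. All 21 tested genes of the list correlated positively with Axl, with a median r of 0.81 beside −0.04 over all genes tested. Among the genes whose pattern over the 18 tumors was most like that of Axl were Uba7 (r = 0.94), Tap1 (0.93), Parp14 (0.93) and Irgm2 (0.93). The 2 tested genes of the T and NK cell list had a median r of 0.85 with Axl over the 18 tumors, and the 1 tested gene of the dendritic cell list had an r of 0.89. With the macrophage score Axl had an r of 0.38 over 18 tumors and 0.09 over the 12 (adjusted permutation p = 0.847 over the 12), and with the melanoma cell score 0.36 and 0.30 (adjusted permutation p = 0.551 over the 12).

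Gas6 followed fibroblast genes. With the fibroblast score r was 0.90 and rho 0.95 over 18 tumors (permutation p = 1e-05 for both, the smallest that 100000 draws can give, adjusted p = 0.0002). Within groups r was 0.91 (adjusted permutation p = 0.0124), over the 12 tumors 0.88, and without the 2 tumors farthest from the median 0.87. The endothelium score gave r = 0.82 and rho = 0.71, and the macrophage score r = 0.75 and rho = 0.74 (adjusted permutation p = 0.000533 and 0.00726, and 0.00176 and 0.0069). Without the 2 farthest tumors these r were 0.72 and 0.63. Over the 12 tumors r was 0.85 with the endothelium score and 0.69 with the macrophage score (adjusted permutation p = 0.0106 and 0.0514). The rho with the macrophage score was 0.55 there (adjusted permutation p = 0.191). With the interferon-stimulated genes r was 0.02. The genes most like Gas6 were Col8a1 (r = 0.95), Cilp (0.95), Mfap4 (0.95), Lox (0.94) and Postn (0.93), which encode proteins of the extracellular matrix or, for Lox, an enzyme that crosslinks it, and Postn is itself in the fibroblast list. Among the 8 tumors with little skin signal Gas6 had a median of 0.900 FPKM (0.356 to 6.22), and among the other 10 a median of 3.56 FPKM (1.20 to 19.4). Its r with the fibroblast score was 0.89 and 0.83 within these sets of tumors, and its r with the skin score itself was −0.13 and 0.64. Over all 18 tumors Gas6 had an r of 0.74 and a rho of 0.72 with the skin score (adjusted permutation p = 0.00367 and 0.00726). Within groups this r was 0.82 (adjusted permutation p = 0.0173), and over the 12 tumors it was 0.69 (adjusted permutation p = 0.0514).

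Pros1 followed the macrophage genes, with r = 0.80 and rho = 0.82 over 18 tumors (permutation p = 0.00011 and 1e-05, adjusted p = 0.0011 and 0.0002). Within groups r was 0.85 (adjusted permutation p = 0.0108) and without the 2 farthest tumors 0.75. It was 0.77 among the 8 tumors with little skin signal and 0.62 among the other 10. Over the 12 tumors outside the groups that chose Axl r was 0.69 (adjusted permutation p = 0.0514). The rho was 0.77 there (adjusted permutation p = 0.045), so that only rho passed the adjusted threshold. All 13 tested macrophage genes correlated positively with Pros1, with a median r of 0.79 beside −0.01 over all genes tested. The fibroblast score (r = 0.64, rho = 0.71) and the interferon-stimulated genes (r = 0.64, rho = 0.49) gave lower values, with adjusted permutation p = 0.0225 and 0.0149 for r. Without the 2 farthest tumors these r were 0.62 and 0.39. Over the 12 tumors they were 0.43 and 0.42 (adjusted permutation p = 0.347 and 0.35). With the skin score Pros1 had an r of 0.58 and a rho of 0.69 over 18 tumors (adjusted permutation p = 0.0529 and 0.0101). Over the 12 tumors these were 0.45 and 0.66 (adjusted permutation p = 0.347 and 0.0964). The genes most like Pros1 were Rbms1 (r = 0.92), Cd47 (0.91), Ctsb (0.91), Ttc39b (0.91) and Tnfrsf1a (0.90). Cd47 is the signal on cells that tells phagocytes not to engulf them, and Ctsb is a protease of the lysosome.

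Mertk and Tyro3 had no relation with these scores past an adjusted p of 0.05 over the 18 tumors as deposited. Mertk had an r of 0.54 and a rho of 0.47 with the macrophage score (adjusted permutation p = 0.0643 and 0.108), and without the 2 farthest tumors r was 0.37. With the fibroblast score Mertk had an r of 0.45, and of 0.67 without the 2 farthest tumors (adjusted permutation p = 0.118 and 0.0295). Tyro3 had an r of −0.49 and a rho of −0.56 with the interferon-stimulated genes (adjusted permutation p = 0.0823 and 0.0576) and an r of −0.51 with the melanoma cell score (adjusted permutation p = 0.0756), and without the 2 farthest tumors these r were −0.49 and −0.55. Over the 12 tumors r was −0.67 and rho −0.63 with the interferon-stimulated genes (adjusted permutation p = 0.0514 and 0.105). With the melanoma cell score they were −0.69 and −0.74 (adjusted permutation p = 0.0514 and 0.045). After quantile normalization the values of Tyro3 with the interferon-stimulated genes were r = −0.59 and rho = −0.60 over 18 tumors (adjusted permutation p = 0.0232 and 0.0293), past the threshold. Its r with the fibroblast score was 0.49 over 18 tumors and 0.78 over the 12 tumors (adjusted permutation p = 0.0866 and 0.0465), and 0.29 without the 2 farthest. With the endothelium score Tyro3 had an r of 0.57 over 18 tumors and 0.73 over the 12 (adjusted permutation p = 0.0529 and 0.0465). The rho over the 12 was 0.68 (adjusted permutation p = 0.082), and r without the 2 farthest tumors was 0.38. Within the 8 tumors with little skin signal Tyro3 had an r of −0.14 with the skin score, and within the other 10 it was 0.81. The genes most like Tyro3 were Tacc2 (r = 0.85), Gm4524 (0.84), Cdr2 (0.84), Sh3pxd2a (0.83) and Rfng (0.83).

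Among pairs of members, Axl and Pros1 had r = 0.67 and rho = 0.59 over 18 tumors, r = 0.80 within groups and r = 0.56 without the 2 farthest tumors, given as descriptions. Over the 12 tumors outside the groups that chose Axl r was 0.71 (permutation p = 0.00814, adjusted p = 0.0465) and rho 0.50 (permutation p = 0.104, adjusted p = 0.259), so that only r passed the adjusted threshold. Axl and its ligand Gas6 had an r of 0.06 and a rho of 0.10 over 18 tumors, and an r of −0.26 over the 12 (adjusted permutation p = 0.614 over the 12). The receptors Axl and Tyro3 had an r of −0.27 over 18 tumors and −0.37 over the 12 (adjusted permutation p = 0.434 over the 12). Tyro3 and Gas6 had an r of 0.52 over 18 tumors and 0.74 over the 12 (adjusted permutation p = 0.0723 and 0.0465). Without the 2 farthest tumors r of Tyro3 and Gas6 was 0.36. Mertk and Gas6 had an r of 0.54 over 18 tumors and 0.65 without the 2 farthest (adjusted permutation p = 0.0643 and 0.0295). Over the 12 tumors this r was 0.50 (adjusted permutation p = 0.257).

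**Figure D4:**
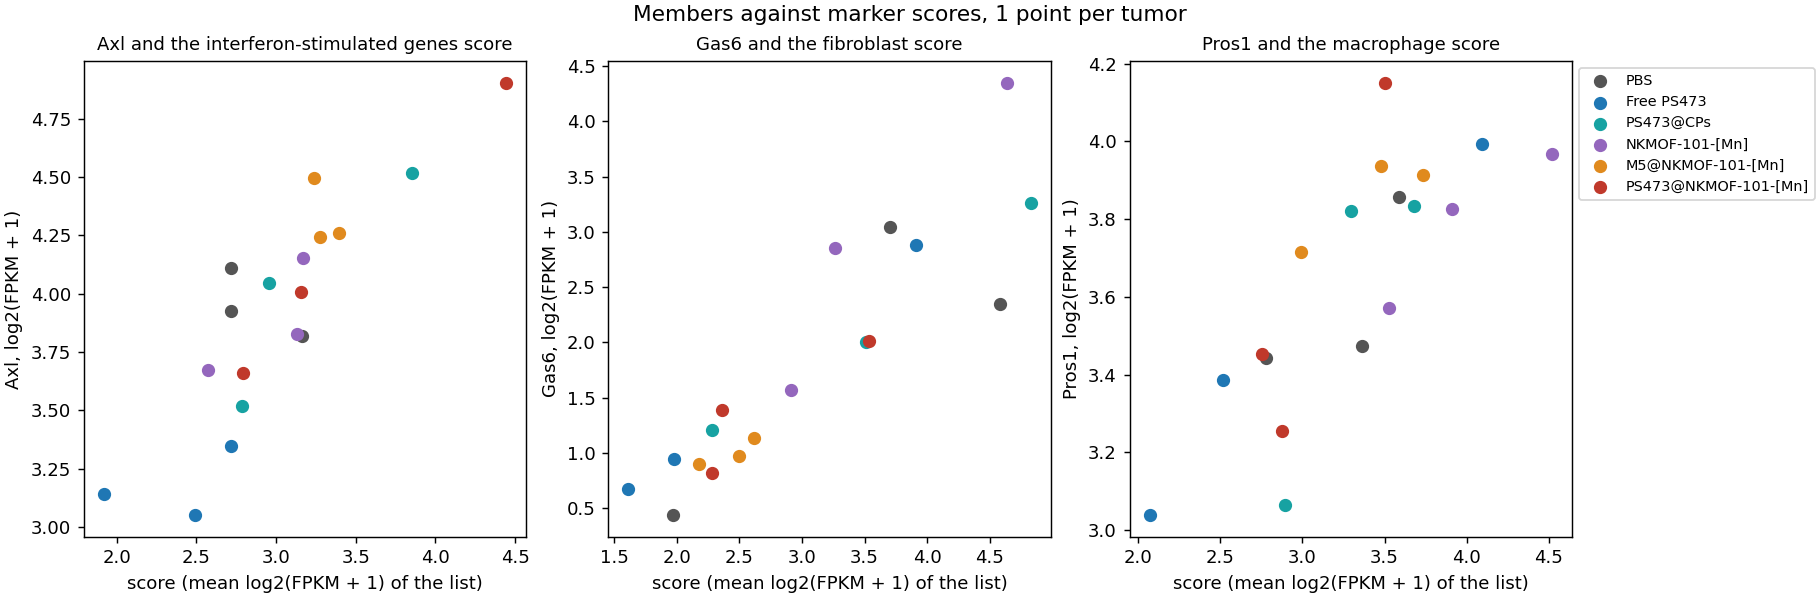
Axl, Gas6 and Pros1 (y axes, log2(FPKM + 1)) against the scores of interferon-stimulated genes, fibroblast genes and macrophage genes (x axes, mean log2(FPKM + 1) of the list), with 1 point per tumor colored by group. Each member rises with its score over the 18 tumors (r = 0.87, 0.90 and 0.80), and the highest Axl point is PS473@NKMOF-101-[Mn] tumor 2.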

How the data were processed

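RNA of 18 tumors, 3 in each of 6 groups, was enriched for poly(A) RNA and sequenced. The table the authors deposited holds FPKM values of 41079 genes and a single length for each. The labels name build GRCm39, and the aligner and the counting tool are not given in the sources used here. Fragments per tumor (17144000 to 28307000) were worked out from the step size of low values, and 49.6% to 53.8% of low values were whole within 0.02, so that no model for counts was used as the main test. Samples were grouped by their titles, read with the treatment description for the framework number.

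Values were transformed to log2(FPKM + 1), genes that averaged 1 FPKM or more were kept (12357), and limma 3.58.1 (R 4.3.3) was fitted with 1 mean per group, a trend on the prior variance and Benjamini-Hochberg adjustment. In a test on simulated data for PS473@NKMOF-101-[Mn] against PBS with 12357 genes, 46.5%, 91.5%, 94% and 97.5% of 200 changed genes were recovered at log2 changes of 1, 1.5, 2 and 3. False calls were 3, 4, 2 and 1. The changed genes were drawn from all genes tested, with independent normal noise and a median pooled SD of 0.18. The members tested spread more, at 1.05 for Gas6, 0.36 for Axl and Pros1 and 0.23 for Tyro3, so these rates are not theirs. Correlations used Python 3.11.15 with numpy 2.4.6 and scipy 1.17.1 and 100000 permutations, drawn within groups for deviations from group means. Promoters came from RefSeq.

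The members and the gene lists were chosen with earlier results of these data known. Genes named are the members, the 5 genes with the highest r with each tested member, and genes of the pathway lists with an unadjusted p under 0.05 or among the most highly expressed. A gene that this rule would name is not reported here. Scores of dendritic cell, T and NK cell, adipocyte, platelet and skeletal muscle markers were computed and lay between 0.16 and 2.39 in every tumor. Alternatives were another pseudocount, other filters, quantile and upper-quartile scaling, each pair of groups alone, no trend, a replicate block, voom on recovered fragments and leaving out each tumor.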

Additional observations from a re-analysis of the deposited data

How the results depend on the processing

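In the 9 comparisons other than the one used for the choice, 0 members were called under any alternative run at the adjusted threshold. With an unadjusted p under 0.05 and a fold over 2 in its place, the main fit also gave 0. With single tumors left out, Gas6 passed this looser rule in M5@NKMOF-101-[Mn] against PBS without PBS tumor 1 (−1.69). It also passed in PS473@NKMOF-101-[Mn] against NKMOF-101-[Mn] without NKMOF-101-[Mn] tumor 3 (−2.19). Beside it, 265 and 50 of the 12357 genes passed. In the contrast used for the choice the main fit gave 1 member by the looser rule, Axl, which is a description and no test. With each tumor left out in turn, the log2 fold changes whose sign changed ranged, for PS473@NKMOF-101-[Mn] against PBS, from −0.12 to 0.50 in Axl, −1.29 to 0.018 in Gas6 and −0.24 to 0.21 in Pros1. Against PS473@CPs they ranged from −0.19 to 0.43 in Axl and −0.22 to 0.23 in Pros1, against NKMOF-101-[Mn] from −0.052 to 0.57 in Axl and −0.43 to 0.014 in Pros1, and against M5@NKMOF-101-[Mn] from −0.50 to 0.12 in Axl. For NKMOF-101-[Mn] against PBS, Axl ranged from −0.20 to 0.038. The cause was not tested. The relation of Axl with the interferon-stimulated genes was 0.82 within groups, a description that did not pass the adjusted threshold. That of Pros1 with the macrophage score was 0.69 over the 12 tumors outside the groups that chose Axl (adjusted permutation p = 0.0514). Its rho was 0.77 there (adjusted permutation p = 0.045). Over the same 12 tumors Pros1 had an r of 0.43 with the fibroblast score and 0.42 with the interferon-stimulated genes (adjusted permutation p = 0.347 and 0.35). Gas6 had an r of 0.69 with the macrophage score there (adjusted permutation p = 0.0514). Fewer tumors entered the relations over the 12. With quantile normalization the relation of Tyro3 with the interferon-stimulated genes passed the adjusted threshold, at −0.59. Without the 2 farthest tumors the relations of Mertk with Gas6 and with the fibroblast score also passed it, at 0.65 and 0.67. With each pair of groups fitted alone, 1 member reached an unadjusted p under 0.05 in PS473@NKMOF-101-[Mn] against NKMOF-101-[Mn] (Tyro3), beside 420 of 12357 genes. In M5@NKMOF-101-[Mn] against PBS 1 member did (Axl), beside 479 of 12357 genes. The adjusted p of each was 0.999 in limma. Equal replicate numbers did not pair the tumors: the correlations of their deviations from group means ran from −0.73 to 0.72 over 45 pairs, and 4 of 18 tumors were most like one of their own number. With the replicate block 0 members were called in each of the same 9 comparisons. Weakly expressed members are limited by depth: at its lowest Gas6 rested on 18.4 fragments, a counting error of 23.3%. Mertk was not fitted with tumors left out.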
